A study of Diuraphis noxia with 6 samples.

Results

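The genes described here are the 100 assembly genes whose transcripts were raised most clearly in the Russian wheat aphid biotype RWA-SAM relative to RWA-SA1. They were taken from 60140 gene IDs, which group 90781 transcripts of a de novo assembly. A gene was considered if it had at least 10 expected counts in each of the 6 libraries and a mean of at least 1 TPM (a transcript's share of all transcripts in the library, corrected for length and depth). The 200 genes of highest mean TPM were set aside. The 12691 genes left were ranked by the lowest RWA-SAM TPM divided by the highest RWA-SA1 TPM, and the 100 largest ratios were kept. Rank 1 is the largest ratio. The members were thus selected on their TPM in both biotypes, so the difference between the biotypes is described below and supported by no test.

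*Diuraphis noxia* is a phloem-feeding aphid of small grains, and its biotypes are populations told apart by the resistant wheat lines they can damage. RWA-SA1 and RWA-SAM are related by descent and lie far apart in virulence on resistant wheat. Each biotype was sequenced as 3 libraries, and each library was made with a stranded mRNA kit from 100 whole aphids of mixed stages pooled together. Both biotypes were kept on hosts they prefer. No treatment separated them, so the contrast is between the biotypes as reared. Any difference in host plant between the biotypes cannot be told apart from the biotype itself. The labels do not state whether the 3 libraries of a biotype came from separate colonies, so the spread between them may be technical. In pools of whole aphids, fewer cells of a type and less RNA per cell cannot be told apart.

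A de novo assembly joins overlapping reads into transcripts without a genome. Transcripts that share sequence are placed in 1 cluster, which the assembler divides into genes, and the alternative transcripts of a gene are its isoforms. Such a gene can be a whole locus, a fragment of one, an allele or a paralog. Whole aphids also carry the bacterium *Buchnera aphidicola*, the obligate symbiont that supplies essential amino acids missing from phloem sap, along with whatever they have eaten. The data pair no gene name, sequence or organism with these IDs, so the 100 genes are called by rank and no function is given to them.

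The libraries held 32294116 to 47619238 expected counts (read counts that RSEM divides among transcripts). In RWA-SA1, replicate 1 was unlike the other libraries of its biotype. Its label was kept, whether the library holds RNA of both biotypes was not tested, and every RWA-SA1 mean and ranking ratio below includes it. Across genes, which are not independent replicates, its log2 TPM correlated at r = 0.973 and r = 0.975 with RWA-SA1 replicates 2 and 3, and at r = 0.981 to 0.988 with the 3 RWA-SAM libraries. The libraries also differed in breadth. In replicates 1, 2 and 3 of RWA-SA1, 19937, 15888 and 15713 genes reached 1 TPM, against 21446 to 23642 in RWA-SAM (exact permutation test, two-sided, p = 0.1, which no 3 against 3 comparison can go below). The 200 most abundant genes took 40.5%, 42.8% and 44.3% of all TPM in those RWA-SA1 libraries, against 38.3% to 39.6% in RWA-SAM (exact permutation test, p = 0.1). On both values replicate 1 was the RWA-SA1 library closest to RWA-SAM. These values move with the biotype as the 100 genes do, and their part in the result was not tested.

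The 100 genes were together a small part of each library. Their summed TPM was 886, 495 and 647 in replicates 1, 2 and 3 of RWA-SA1. In replicates 1, 2 and 3 of RWA-SAM it was 2344, 2007 and 2306. Of the expected counts they took 0.0276% to 0.0465% in RWA-SA1 libraries and 0.106% to 0.122% in RWA-SAM libraries. The biotypes did not overlap, and RWA-SA1 replicate 1 was the RWA-SA1 library closest to RWA-SAM. The median member lay at 3.24, 1.52 and 1.64 TPM in replicates 1, 2 and 3 of RWA-SA1, and at 8.25, 6.99 and 8.14 TPM in those of RWA-SAM. The mean level of a member ran from 0.383 to 263 TPM in RWA-SA1 (median 2.20) and from 1.56 to 615 TPM in RWA-SAM (median 8.25). Most members were therefore low transcripts in both biotypes, and none was silent in RWA-SA1, since the rule asked for counts in every library.

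The ratio that ranked the genes, lowest RWA-SAM over highest RWA-SA1 TPM, ran from 1.82 to 3.66 with a median of 2.01. It was at least 2 in 53 members, which were all the genes to reach that ratio (0.418% of the 12691), and at least 3 in 4 members. Its exact binomial 95% interval, which covers counting error only, lay above 2 in 3 members and reached 1 in 2. As the ratio chose the genes, these intervals show only how few counts lie behind it. All members passed 1.5, as did 281 genes in all (2.21%). Levels that did not overlap were common: in 3752 genes (29.6%) all RWA-SAM libraries lay above all RWA-SA1 libraries. The 100 genes are thus the far end of a broad group rather than a group set apart by a gap. In terms of means, RWA-SAM lay 2.23-fold to 6.75-fold above RWA-SA1 in the members, with a median of 3.59-fold. Their median log2 ratio of mean TPM was 1.84, beside 0.17 over all genes that met the limits.

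**Figure D1:**
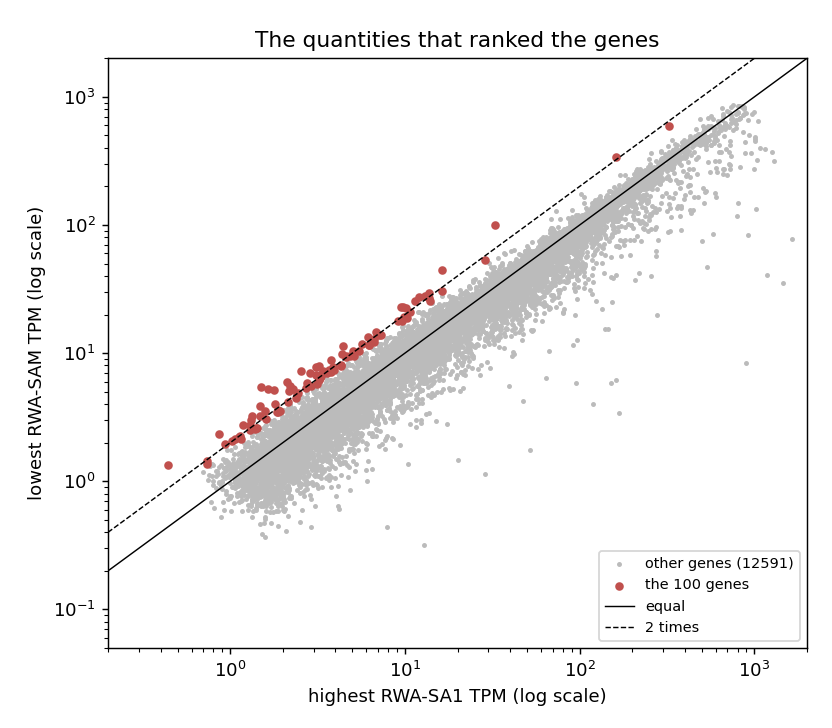
Lowest RWA-SAM TPM against highest RWA-SA1 TPM on log axes, 1 point per gene, for the 100 genes (red) and the other 12591 genes (grey), with lines for equal levels (solid) and for a ratio of 2 (dashed). The 100 genes lie along and above the dashed line, over a wide range of TPM, and 53 of them reach a ratio of 2.

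At the limit of the rule the values ran on without a step. Rank 100 had 1.42, 0.78 and 0.76 TPM in RWA-SA1 and 3.51, 2.75 and 2.59 TPM in RWA-SAM, a ratio of 1.824. The next gene, the first outside, had 3.55, 0.61 and 0.67 TPM in RWA-SA1 and 7.31, 6.46 and 7.57 TPM in RWA-SAM, a ratio of 1.820. By its means the gene outside differed more (4.42-fold) than the gene inside (2.99-fold). The ranking does not use means, since it sets only the lowest RWA-SAM library against the highest RWA-SA1 library.

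Rank 1, TRINITY_DN10435_c0_g1, is a single transcript of 622 bases. It had 1.49, 0.94 and 1.05 TPM in RWA-SA1 replicates 1, 2 and 3 (1.16 ± 0.291, SD, n = 3) and 7.60, 5.45 and 9.48 TPM in RWA-SAM replicates 1, 2 and 3 (7.51 ± 2.02, SD, n = 3), a 6.47-fold difference of means. Relative to the mean, the libraries were spread about equally, with a coefficient of variation of 25.1% for RWA-SA1 and 26.9% for RWA-SAM. Behind these levels stood 16, 12 and 15 expected counts in RWA-SA1 and 80, 52 and 109 in RWA-SAM. The ranking ratio of 3.66 compares 52 with 16 counts, and its exact binomial 95% interval, which covers counting error only, ran from 2.06 to 6.86. As this ratio put the gene in first place, the interval shows how few counts lie behind that place and supports nothing.

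Rank 2, TRINITY_DN36668_c0_g1, is also a single transcript, of 569 bases. It had 1.58, 1.24 and 1.65 TPM in RWA-SA1 and 5.27, 6.17 and 5.63 TPM in RWA-SAM, a 3.82-fold difference of means. Neither biotype held a library far from the other replicates, and RWA-SA1 replicate 1 lay between replicates 2 and 3. Rank 3, of 1215 bases, was the scarcest of the first 10, with 0.44, 0.34 and 0.37 TPM in RWA-SA1 and 1.64, 1.96 and 1.34 TPM in RWA-SAM. Its means differed 4.30-fold, and its RWA-SA1 libraries were again close to each other.

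Ranks 4 and 8 belong to the same assembly cluster and were the most abundant of the first 10. Rank 4, of 783 bases, had 32.75, 18.45 and 14.77 TPM in RWA-SA1 (22.0 ± 9.50, SD, n = 3) and 139.04, 99.45 and 138.22 TPM in RWA-SAM (126 ± 22.6, SD, n = 3), a 5.71-fold difference. Rank 8, of 796 bases, had 16.30, 6.27 and 3.77 TPM in RWA-SA1 (8.78 ± 6.63, SD, n = 3) and 63.14, 54.50 and 44.89 TPM in RWA-SAM (54.2 ± 9.13, SD, n = 3), a 6.17-fold difference. In both genes replicate 1 was the highest RWA-SA1 library, and every RWA-SAM library lay above it. The ranking ratio was 3.04 for rank 4 and 2.75 for rank 8. As they share a cluster, they may share sequence and are not taken as independent of each other.

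Ranks 5, 6 and 7 were single transcripts of 715, 582 and 668 bases. Rank 5 had 1.77, 0.72 and 1.05 TPM in RWA-SA1 and 5.75, 5.39 and 5.17 TPM in RWA-SAM (4.61-fold). Rank 6 had 2.55, 0.86 and 1.60 TPM in RWA-SA1 and 8.13, 8.04 and 7.27 TPM in RWA-SAM (4.68-fold). Rank 7 had 2.11, 0.78 and 0.83 TPM in RWA-SA1 and 8.79, 6.00 and 10.31 TPM in RWA-SAM, and its 6.75-fold difference was the largest of the 100. In all of these the highest RWA-SA1 library was replicate 1, and ranks 5 and 6 were tighter in RWA-SAM than in RWA-SA1. Ranks 9 and 10 had 2 isoforms each. Rank 9, of 1483 bases, had 0.86, 0.63 and 0.62 TPM in RWA-SA1 and 4.95, 2.35 and 2.87 TPM in RWA-SAM (4.82-fold). Rank 10, of 741 bases, had 1.47, 0.81 and 0.67 TPM in RWA-SA1 and 4.01, 3.88 and 3.88 TPM in RWA-SAM (3.99-fold). RWA-SAM replicate 1 stood above its replicates in rank 9, whereas the 3 RWA-SAM libraries were almost equal in rank 10.

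**Figure D2:**
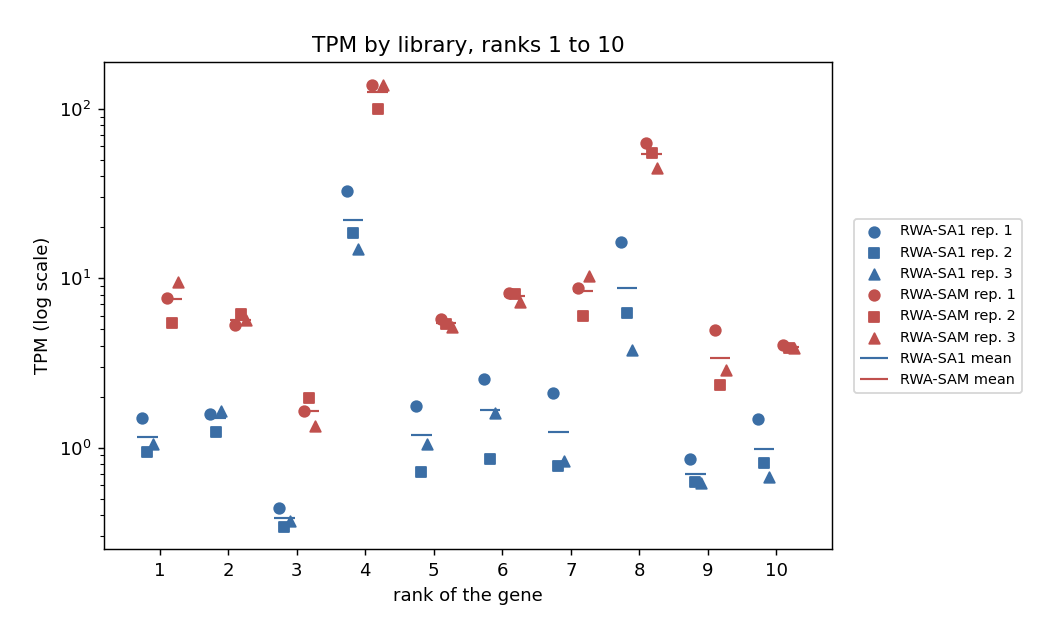
TPM (log axis) of ranks 1 to 10 in each library, with RWA-SA1 in blue and RWA-SAM in red, a marker shape per replicate and a short line at the mean of 3. In every one of these genes the 3 RWA-SAM points lie above the 3 RWA-SA1 points, and ranks 4 and 8 sit well above the rest in level.

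The most abundant member was rank 98, of 1255 bases. It had 238.20, 226.51 and 323.56 TPM in RWA-SA1 (263 ± 53.0, SD, n = 3) and 658.40, 592.09 and 594.36 TPM in RWA-SAM (615 ± 37.6, SD, n = 3), a 2.34-fold difference resting on at least 6154 counts in each library. Here RWA-SA1 replicate 3 was the highest of its biotype. Rank 39, of 919 bases, followed with 160.97, 46.50 and 77.67 TPM in RWA-SA1 (95.05 ± 59.2, SD, n = 3) and 403.70, 336.32 and 428.75 TPM in RWA-SAM (390 ± 47.8, SD, n = 3), a 4.10-fold difference. Its RWA-SA1 libraries were spread widely, with replicate 1 above the others. Ranks 98, 39 and 4 were the members with a mean of 50 TPM or more. Rank 87, of 1363 bases, had 28.69, 4.41 and 5.80 TPM in RWA-SA1 and 62.19, 53.29 and 62.87 TPM in RWA-SAM, a 4.58-fold difference. With rank 8 these completed the 5 members of highest mean TPM, and in rank 87 the value of RWA-SA1 replicate 1 decides the RWA-SA1 mean.

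The counts behind most members were low. The lowest expected count of a member, always in RWA-SA1, had a median of 22.5 and was under 20 in 45 members and under 50 in 73. Over all genes that met the limits these shares were 10.3% and 21.0%. A lowest count of 100 or more was found in 7 members, against 72.1% of all genes. Summed counts were whole numbers (within 0.01) in all libraries for 99 members, rank 85 being the exception, and for 91.1% of all genes. Reads were thus seldom divided between a member and a transcript of another gene.

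The libraries of a biotype were not equally spread in these genes. The median coefficient of variation was 41.4% within RWA-SA1 and 12.4% within RWA-SAM, against 15.4% and 8.11% in the other genes. It was smaller in RWA-SAM for 87 members and for 74.8% of all genes. The highest RWA-SA1 library was replicate 1 in 89 members (62.6% of all genes), replicate 2 in 5 and replicate 3 in 6. The lowest RWA-SAM library was replicate 2 in 70 members (55.2% of all genes), replicate 1 in 17 and replicate 3 in 13. The ranking thus set RWA-SAM replicate 2 against RWA-SA1 replicate 1 in most members.

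**Figure D3:**
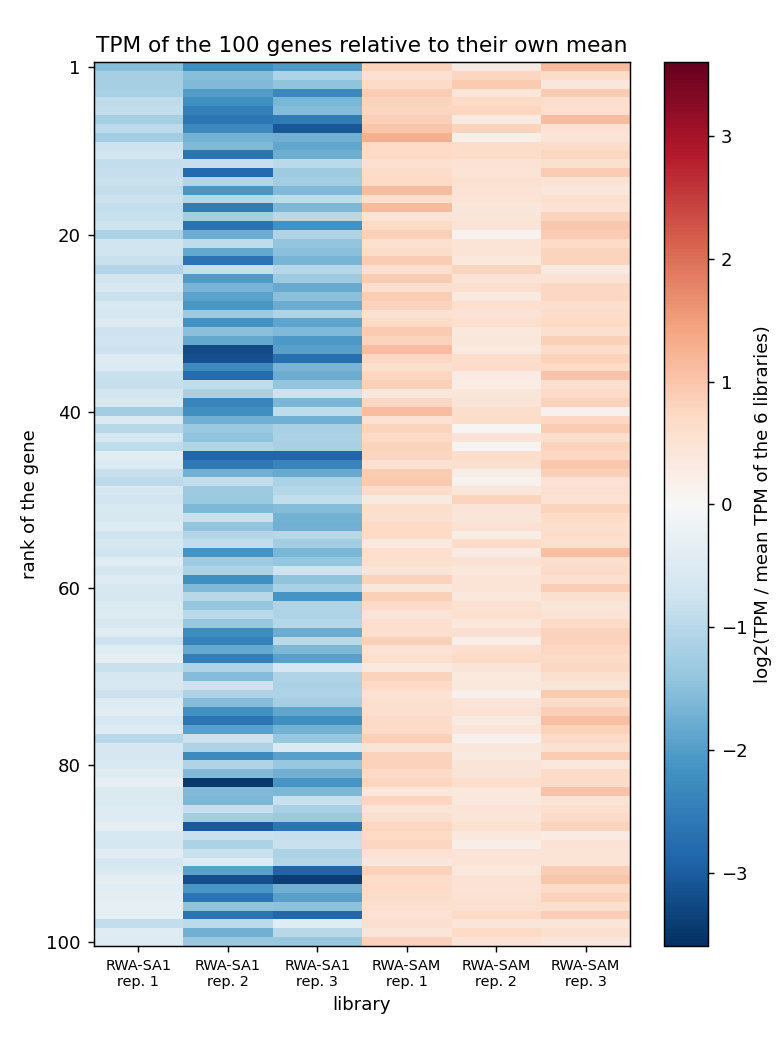
Heat map of the 100 genes (rows, by rank) in the 6 libraries, coloured by the log2 of TPM over the gene's own mean of the 6 libraries, blue below and red above. The RWA-SAM columns are pale red or near white, the columns of RWA-SA1 replicates 2 and 3 are the deepest blue, and that of RWA-SA1 replicate 1 is paler, as the highest RWA-SA1 library in 89 genes.

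RWA-SA1 replicate 1 held an intermediate place in the members. Its TPM was 0.866 to 7.59 times the mean of replicates 2 and 3, with a median of 1.86, against 1.14 in the other genes. It was at least 1.5 times that mean in 66 members (20.4% of all genes), at least 2 times in 42 (8.57%) and at least 5 times in 6. On a scale where the mean of replicates 2 and 3 is 0% and the RWA-SAM mean is 100%, replicate 1 had a median place of 23.4% in the members. Over all genes that met the limits its median place was 70.9%, on a scale that is unstable where those means are close. In the members it lay under 10% in 17, from 10% to 30% in 53 and at 30% or more in 30, with a highest place of 45.2%. A high place is barred by the rule, since RWA-SAM had to lie above every RWA-SA1 library. Against replicates 2 and 3 alone the RWA-SAM mean was 4.60-fold higher in the median member (range 2.24-fold to 16.3-fold), and against replicate 1 alone 2.33-fold higher (range 1.84-fold to 5.04-fold).

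The member in which RWA-SA1 replicate 1 lay farthest above its replicates was rank 93, of 1163 bases. It had 6.64, 0.94 and 0.81 TPM in RWA-SA1 (2.80 ± 3.33, SD, n = 3) and 13.57, 12.25 and 16.87 TPM in RWA-SAM (14.2 ± 2.38, SD, n = 3), a 5.09-fold difference of means. Replicate 1 was 7.59 times the mean of replicates 2 and 3, and the SD of RWA-SA1 exceeded its mean. In rank 87, described above, replicate 1 was 5.62 times that mean. Rank 45, of 837 bases, had 5.04, 0.91 and 0.91 TPM in RWA-SA1 and 11.45, 10.32 and 11.22 TPM in RWA-SAM (4.81-fold). In these genes replicates 2 and 3 were nearly equal, and replicate 1 lay between them and RWA-SAM.

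At the other end replicate 1 sat level with or below the others. Rank 98 had the lowest value, at 0.866 times the mean of replicates 2 and 3. Rank 12, of 920 bases, had 4.31, 4.44 and 4.02 TPM in RWA-SA1 (4.26 ± 0.215, SD, n = 3) and 11.67, 11.27 and 11.73 TPM in RWA-SAM (11.6 ± 0.250, SD, n = 3), a 2.71-fold difference. Rank 24, of 1185 bases, had 1.37, 1.57 and 1.40 TPM in RWA-SA1 and 4.21, 4.97 and 3.56 TPM in RWA-SAM, a 2.94-fold difference. Rank 12 was tight in both biotypes, on 77, 93 and 94 counts in RWA-SA1 and 204, 178 and 226 in RWA-SAM. As the rule used these values, the small spread supports nothing about its difference. The position of replicate 1 therefore varied from gene to gene among the 100, and 21 members had it within 1.25 times of the mean of replicates 2 and 3 (49.3% of all genes).

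**Figure D4:**
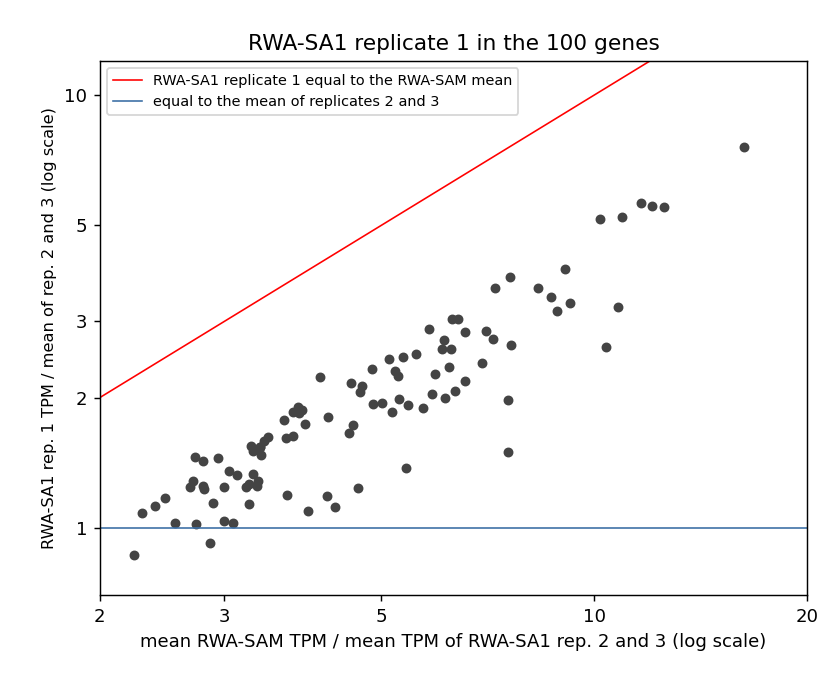
RWA-SA1 replicate 1 TPM over the mean of RWA-SA1 replicates 2 and 3 (vertical, log axis) against the RWA-SAM mean over the same mean (horizontal, log axis), 1 point for each of the 100 genes, with lines where replicate 1 equals the RWA-SAM mean (red) and where it equals replicates 2 and 3 (blue). Points spread from the blue line up to a band below the red line, which the rule does not allow them to reach, and replicate 1 was at least 2 times replicates 2 and 3 in 42 genes.

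Length and isoform number were not part of the rule. The longest isoform of a member had a median of 883 bases (range 349 to 2189), against 1913 bases in the other genes. It was under 500 bases in 11 members, 500 to 1000 bases in 49, 1000 to 2000 bases in 39 and 2000 bases or more in 1. Over all genes that met the limits these classes held 3.10%, 16.5%, 33.4% and 47.1%. A single isoform was assembled for 81 members, against 41.3% of all genes, while 17 had 2 to 4 isoforms (39.4%) and 2 had 5 or more (19.3%). Mean TPM was under 5 in 50 members (25.4% of all genes), 5 to 50 in 47 (51.2%) and 50 or more in 3 (23.4%). The members were thus shorter, more often without alternative isoforms and lower in level than the genes they were drawn from.

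The same ranking turned round, lowest RWA-SA1 over highest RWA-SAM TPM, gives 100 genes raised in RWA-SA1, and their structure was unlike that of the members. Their longest isoform had a median of 1872.5 bases, 47 of them reached 2000 bases, and 44 had a single isoform, close to the shares of all genes. Their summed TPM was 6685, 8599 and 9605 in the libraries of RWA-SA1 and 3728, 4156 and 3427 in those of RWA-SAM. By median, mean TPM was 10.5 in these genes, 5.05 in the members and 19.05 over all genes, so both groups had a low median. The genes raised in RWA-SA1 were not all low, since their 90th percentile of mean TPM was 235.08, against 100.907 over all genes. A mean of 50 TPM or more was reached by 19 of them, by 3 members and by 23.4% of all genes. The genes raised in RWA-SAM were a scarcer and shorter group than those raised in RWA-SA1. No test was made of this difference, since genes are not replicates.

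**Figure D5:**
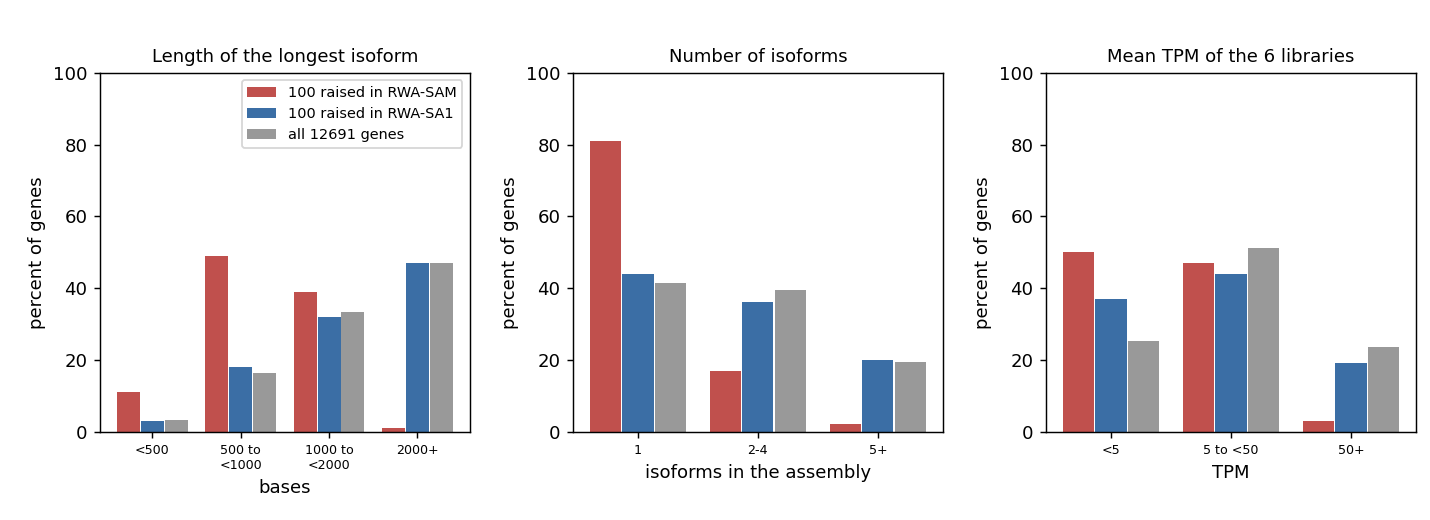
Percent of genes in each class of longest isoform length (bases), isoform number and mean TPM, for the 100 genes raised in RWA-SAM (red), the 100 raised in RWA-SA1 by the mirrored rule (blue) and all 12691 genes that met the limits (grey). The red bars are highest at 500 to 1000 bases (49%), at a single isoform (81%) and under 5 TPM (50%), whereas 47% of the blue and 47.1% of the grey genes have 2000 bases or more.

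Length moved with the biotype difference over all genes as well. The median log2 ratio of mean TPM, RWA-SAM over RWA-SA1, was 0.46 for genes under 500 bases, 0.44 for 500 to 1000, 0.23 for 1000 to 2000 and 0.07 for 2000 bases or more. A ranking ratio of at least 1.5 was reached by 7.38%, 6.36%, 2.41% and 0.285% of these classes. Of the 1705 genes with a single isoform under 1000 bases, 8.45% reached it, and 53 of the 100 members were among these genes. Fragment length, read from how far RSEM shortened transcripts over 2000 bases, was 152.69 to 169.92 bases in RWA-SA1 and 167.11 to 180.91 bases in RWA-SAM (exact permutation test, two-sided, p = 0.2). Its part in the members' lengths was not tested. On CPM (counts relative to library size) scaled by TMM (trimmed mean of M-values), which hold no length term, the members' median log2 ratio was 1.63 and that of all genes -0.02, and 88 members stayed in the first 100. On that scale the RWA-SAM libraries lay above all RWA-SA1 libraries in 99 members, rank 24 being the exception, and in 20.5% of all genes.

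Within the 100, the median difference between the biotypes varied little with length. The median fold of means was 3.42 for the 11 members under 500 bases, 3.71 for 500 to 1000 bases and 3.58 for 1000 to 2000 bases. The shortest members were ranks 66, 16 and 57. Rank 66, of 349 bases, had 10.72, 3.42 and 9.50 TPM in RWA-SA1 and 33.30, 20.81 and 33.08 TPM in RWA-SAM (3.69-fold), with replicate 2 the lowest library in both biotypes. Rank 16, of 365 bases, had 9.43, 7.91 and 8.63 TPM in RWA-SA1 and 24.30, 23.01 and 24.35 TPM in RWA-SAM (2.76-fold). Rank 57, of 427 bases, had 3.26, 1.76 and 1.67 TPM in RWA-SA1 and 6.51, 6.41 and 6.69 TPM in RWA-SAM (2.93-fold). Rank 16 was even across the libraries of both biotypes, and rank 57 only across those of RWA-SAM.

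The longest members were ranks 63, 90 and 70. Rank 63, of 2189 bases and 8 isoforms, had 13.71, 9.92 and 8.98 TPM in RWA-SA1 and 26.68, 29.51 and 27.04 TPM in RWA-SAM (2.55-fold). Rank 90, just under 2000 bases long, had 1.88, 1.44 and 1.14 TPM in RWA-SA1 and 3.57, 3.49 and 3.48 TPM in RWA-SAM (2.36-fold). Rank 70, of 1697 bases, had 0.74, 0.38 and 0.53 TPM in RWA-SA1 and 2.02, 1.43 and 1.67 TPM in RWA-SAM (3.10-fold). Folds of these long members lay below the members' median of 3.59.

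Several isoforms were assembled for 19 members. In 11 of them the isoform with the largest rise carried at least 80% of the gene's difference. That isoform was picked by its rise, and with few isoforms per gene a large share is likely beforehand. The leading isoform, the one with most TPM, was the same in both biotypes in 16 and differed in ranks 51, 60 and 88. Over all 7448 genes with several isoforms that met the limits it differed in 1160 (15.6%). Its median share of the gene was 82.7% within RWA-SA1 and 78.0% within RWA-SAM, and it changed by at least 10 percentage points in 9 members. This count and that of the 80% share were not made over other genes, so they describe the members only. Isoforms of near-identical sequence share reads that RSEM divides by estimate, so these shares are less certain than the gene totals.

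Rank 88 changed its leading share most, with 3 isoforms at very low counts. The gene had 0.74, 0.64 and 0.62 TPM in RWA-SA1 and 1.84, 1.46 and 1.37 TPM in RWA-SAM, a 2.34-fold difference of means. In RWA-SA1 each library counted a different isoform and only that one, with 12, 11 and 14 counts in replicates 1, 2 and 3. In RWA-SAM its isoform of 889 bases led in all 3 libraries, at 1.51, 1.27 and 0.89 TPM. The share of this isoform was 33.3% in RWA-SA1, against 78.0% in RWA-SAM, but at counts this low it is not a stable measure.

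Rank 51 followed, with isoforms of 503 and 577 bases. The gene had 3.27, 1.55 and 1.62 TPM in RWA-SA1 and 7.39, 6.55 and 8.25 TPM in RWA-SAM (3.45-fold). The shorter isoform had 1.54, 0.91 and 0 TPM in RWA-SA1 and 4.71, 3.43 and 7.37 TPM in RWA-SAM, and its share went from 35.3% to 68.5%. The longer isoform had 1.73, 0.64 and 1.62 TPM in RWA-SA1 and 2.68, 3.12 and 0.88 TPM in RWA-SAM, so its biotypes overlapped. The rise of rank 51 lay mainly in its shorter isoform. Rank 24 likewise held an isoform of 344 bases with 0, 1.31 and 0.98 TPM in RWA-SA1 and 3.20, 3.01 and 2.53 TPM in RWA-SAM. Its isoform of 1185 bases had 1.37, 0.26 and 0.42 TPM in RWA-SA1 and 1.01, 1.96 and 1.03 TPM in RWA-SAM, and overlapped. The gene's summed counts were 33, 14 and 19 in RWA-SA1 and 37, 53 and 38 in RWA-SAM, a much narrower gap than its TPM shows, because TPM weighs counts on a short isoform more.

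In ranks 10 and 64 an isoform was counted in all 3 RWA-SAM libraries and in no RWA-SA1 library. In rank 10 this was an isoform of 531 bases with 0.46, 1.76 and 0.66 TPM in RWA-SAM, and the isoform of 741 bases went from 100% of the gene in RWA-SA1 to 75.4% in RWA-SAM. The longer isoform alone had 1.47, 0.81 and 0.67 TPM in RWA-SA1 and 3.55, 2.12 and 3.22 TPM in RWA-SAM, and so did not overlap either. In rank 64, with 4 isoforms, the isoform was one of 240 bases with 1, 1 and 3 counts in RWA-SAM. The rank 64 gene had 2.14, 1.23 and 1.56 TPM in RWA-SA1 and 4.85, 4.16 and 5.11 TPM in RWA-SAM (2.86-fold), and its isoform of 1008 bases led in both biotypes at 60.4% and 61.4%. No member held an isoform counted in all RWA-SA1 libraries and absent from RWA-SAM. Over all genes that met the limits, 0.709% held an isoform counted only in RWA-SAM and 0.780% one counted only in RWA-SA1. The members' counts are too small to set them apart from these shares.

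The members with most isoforms were ranks 63 and 60. In rank 63 the isoform of 2189 bases led in every library, with 9.27, 6.30 and 7.31 TPM in RWA-SA1 and 19.01, 17.75 and 17.60 TPM in RWA-SAM, and its share was 70.8% and 65.5%. Rank 60, with 7 isoforms, had 9.14, 4.48 and 6.05 TPM in RWA-SA1 and 17.88, 18.86 and 24.81 TPM in RWA-SAM (3.13-fold). The isoform of 859 bases in rank 60 had 2.89, 2.00 and 2.11 TPM in RWA-SA1 and 5.44, 5.70 and 6.92 TPM in RWA-SAM. Its isoform of 580 bases had 1.86, 1.23 and 1.63 TPM in RWA-SA1 and 5.94, 7.21 and 6.44 TPM in RWA-SAM. The rise of rank 60 was shared among isoforms, since the largest contribution of any 1 of them was 35.5%.

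The 100 genes came from 97 assembly clusters, of which 39 held a single gene ID. Only 3 clusters held a pair of members, namely ranks 4 and 8, ranks 11 and 31, and ranks 61 and 83. In 43 clusters there were 121 other genes that met the limits, and these lay on both sides of equal levels. Their median fold of means was 1.04, and 28.1% of them lay higher in RWA-SAM without overlap and 19.8% lower. Over all genes that met the limits these shares were 29.6% and 11.3%. At least 1 neighbour lay higher in RWA-SAM without overlap for 25 of the 45 members with such neighbours. Of these 45 members, 38 were shorter than the longest neighbour and 37 were less abundant than the most abundant one. For 33 of them a single neighbour was both longer and more abundant, though not for rank 4, which was more abundant than each of its neighbours. Members were short and low to begin with, and each was set against the largest of its neighbours. The same was not counted for other genes, so these counts describe the members only.

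The cluster of ranks 4 and 8 held neighbours of the other direction. Its 3 other genes had longest isoforms of 3989, 3441 and 5086 bases and RWA-SAM over RWA-SA1 folds of 0.70, 0.79 and 0.72, the reverse of the direction in ranks 4 and 8. The one with most isoforms, 13, had 43.17, 76.24 and 61.30 TPM in RWA-SA1 and 44.96, 45.50 and 36.14 TPM in RWA-SAM, so its biotypes overlapped. The other 2 lay lower in RWA-SAM without overlap. For the one of fold 0.79 the gap was only from 15.66 TPM in RWA-SA1 to 15.56 TPM in RWA-SAM. Ranks 11 and 31 lay beside genes whose folds were 0.81 to 1.14. Rank 11, of 919 bases, had 2.19, 0.57 and 1.03 TPM in RWA-SA1 and 5.73, 5.58 and 5.98 TPM in RWA-SAM (4.56-fold). Rank 31, of 1160 bases, had 3.09, 1.84 and 1.74 TPM in RWA-SA1 and 10.05, 6.75 and 7.72 TPM in RWA-SAM (3.68-fold). Both members of this pair rose beside genes of nearly even level.

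Rank 9 had a neighbour of 1765 bases with 1.40, 1.48 and 1.28 TPM in RWA-SA1 and 0.78, 0.75 and 1.01 TPM in RWA-SAM, a fold of 0.61. Rank 82, of 463 bases, had 16.33, 1.79 and 4.54 TPM in RWA-SA1 and 34.27, 30.59 and 31.92 TPM in RWA-SAM (4.27-fold). A neighbour of rank 82, of 854 bases, had 6.08, 10.09 and 10.38 TPM in RWA-SA1 and 2.64, 4.44 and 1.37 TPM in RWA-SAM, a fold of 0.32. In these clusters, singled out after their values were seen, a gene lower in RWA-SAM stood beside a member that was higher. Other neighbours were higher together with their member. The neighbour of rank 58 had 7.08, 2.45 and 2.78 TPM in RWA-SA1 and 14.35, 11.68 and 14.66 TPM in RWA-SAM (3.31-fold). That of rank 37 had 9.79, 3.17 and 4.51 TPM in RWA-SA1 and 20.72, 16.29 and 18.64 TPM in RWA-SAM (3.19-fold), and further neighbours of ranks 36 and 52 reached 2.98-fold and 2.92-fold. Whether such neighbours are alleles, paralogs or fragments cannot be read from the IDs. Rank 34, of 1371 bases, had 13.08, 2.01 and 2.74 TPM in RWA-SA1 and 29.94, 27.91 and 31.58 TPM in RWA-SAM (5.02-fold), beside 12 neighbours with folds of 0.63 to 1.91.

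edgeR's quasi-likelihood test on rounded counts, fitted to 16358 genes, called 646 genes higher in RWA-SAM (3.95%) and 910 lower at an adjusted p under 0.05. Among the 100 members 89 were called higher, which the choice of the members on this contrast largely fixes. The edgeR log2 fold changes of the members ran from 0.94 to 2.59 with a median of 1.63. Rank 1 had a log2 fold change of 2.48 (edgeR adjusted p = 0.0224) and rank 2 of 1.70 (edgeR adjusted p = 0.0283). The members not called were ranks 24, 34, 45, 78, 82, 87, 88, 91, 93, 95 and 97, with edgeR adjusted p from 0.0502 to 0.119. Rank 24 had the highest. Ranks 34, 45, 82, 87, 93 and 97 were the 6 members in which RWA-SA1 replicate 1 was at least 5 times the mean of replicates 2 and 3.

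These calls changed with the libraries fitted. With RWA-SA1 replicate 1 left out, edgeR called all 100 members, but it then called 25.6% of all genes higher. With any 1 of the other 5 libraries left out, namely RWA-SA1 replicate 2 or 3 or any RWA-SAM library, edgeR called 0 members and 0 genes in either direction, although 99 or 100 members and 1863 to 2426 of all genes stayed higher at an unadjusted p under 0.05. In the fit to all 6 libraries 100 members were under that unadjusted limit, with 18.1% of all genes. DESeq2 called 97 members and 10.8% of all genes higher, and edgeR with RLE scaling 89 members and 3.86%. edgeR under the limits of the rule called 92 members (4.26% of all genes), and without a filter beyond a count above 0 it called 50 (0.286%). The limma test called 100 members on log2(TPM + 1) (7.77% of all genes) and 83 on log2(TPM + 0.1) (2.64%).

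The identity of the members also turned on RWA-SA1 replicate 1. Ranked without it, 25 of the 100 genes stayed in the first 100, whereas 67 to 88 stayed when any other single library was left out. Whichever library was left out, 14 members stayed, among them 5 of ranks 1 to 10 and 7 of ranks 1 to 20. Ranked by the ratio of means 51 members stayed, and by the ratio of medians 22. A count limit of 50 in place of 10 kept 27. The short length of the group was common to these choices: the median longest isoform was 781.5 to 1264.5 bases and 67 to 91 of the genes had a single isoform under the altered rankings for which they were computed, chosen after the data were seen.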

How the data were processed

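The 6 whole-aphid libraries, 3 of each biotype, took their group and replicate number from the sample titles. Tools named in the submitters' processing notes are FastQC, Trimmomatic 0.39 and RSEM. The aligner was not given in the sources used here. The deposited expected counts, TPM, FPKM and isoform percent values are the authors' RSEM output per transcript and per library, with no pooling, and are accompanied by transcript lengths. Isoform percent was not used.

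Expected counts and TPM were summed per gene ID. Rounded counts were fitted in edgeR 4.0.16 under R 4.3.3 (TMM, filterByExpr, two-sided quasi-likelihood test, Benjamini-Hochberg adjustment, threshold 0.05), after the procedure had been tested on simulated data. Single values per library were compared by exact permutation. Ratio intervals are exact binomial intervals at 95% and cover counting error only. Depth, 32294116 to 47619238 expected counts per library, limits the precision. The chi-square per degree of freedom between libraries was at least 17.8, so no library was a copy of another. Alternatives were DESeq2 1.42.0, RLE scaling, other filters, limma 3.58.1 on log2(TPM + 1) and log2(TPM + 0.1), FPKM, TMM-scaled CPM, the replicate number as a block, leaving out each library and altered rankings. Summaries used Python 3.11.15, pandas 2.3.3, numpy 2.4.6, scipy 1.17.1 and matplotlib 3.10.9.

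The members and the classes were chosen with earlier results of these data known. Values in every library are given for ranks 1 to 10, the 5 members of highest mean TPM, the 3 with most isoforms, the 3 longest, the 3 shortest, the 3 of largest change in leading share, the 3 where RWA-SA1 replicate 1 lay highest and the 3 where it lay lowest against its replicates, and the genes on both sides of the limit of the rule. Ranks 11, 31, 34, 36, 37, 52, 58, 61, 82 and 83 and the cluster neighbours were named after their values were seen. As the IDs carry no names, no list of pathway genes could be applied.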

Additional observations from a re-analysis of the deposited data

How the results depend on the processing

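Of the 100 members, 89 were called by edgeR (3.95% of all genes called higher) and 83 to 100 under DESeq2, RLE scaling, the limits of the rule and limma (2.64% to 10.8% of all genes). Without a filter beyond a count above 0, edgeR called 50 members, 171 genes higher (0.286%) and 407 lower. DESeq2 called 1769 genes higher and 2152 lower, limma on log2(TPM + 1) called 1271 and 382, and limma on log2(TPM + 0.1) called 432 and 186. Leaving out 1 library gave 0 to 100 members, 0 to 4507 genes higher and 0 to 4369 lower, and the high end in each came from leaving out RWA-SA1 replicate 1. With the replicate number as a block edgeR called 0 members and 0 genes in either direction (lowest adjusted p = 0.0711), with 99 members and 2701 of all genes higher at an unadjusted p under 0.05. The correlations of same-numbered libraries' deviations were -0.12, 0.16 and -0.22. RWA-SA1 replicates 1 and 3 correlated best with RWA-SAM replicates 3 and 1 (0.27 and 0.14), but replicate 2 with RWA-SAM replicate 2 (0.16). With 3 libraries per biotype the deviations are not independent of each other, so these correlations cannot decide whether libraries pair by number. Whether same-numbered libraries share a batch was not tested.

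The members' median log2 ratio of 1.84 was 1.41 on log2(TPM + 1), where the pseudocount shrinks low genes, and 1.62 to 2.20 with 1 library left out. Count limits of 5, 20 and 50 kept 62, 55 and 27 members, a mean TPM limit of 5 kept 50, the ratio of means 51 and the ratio of medians 22. Leaving out 1 library kept 25 to 88. Scaling by TMM moved the median log2 ratio of all genes from 0.17 to -0.02. Genes whose libraries did not overlap were 3752 higher and 1433 lower on TPM, and 2607 and 2854 on TMM-scaled CPM, a scale chosen for this count after the data were seen. The causes of these shifts were not tested. Low counts in RWA-SA1 limit the precision of most members.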
